A study of Mus musculus with 9 samples.

Results

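The genes Srebf2, Insig1, Hmgcs1, Idi1, Sqle, Lss and Cyp51, which belong to cholesterol synthesis and its control, were followed in macrophage lines of 3 developmental origins. They were chosen by name, with earlier results of these data known, as 7 of 24411 gene symbols in an expression table, and all 7 passed the filter on low values that left 11753 genes for testing. Bulk RNA-seq was made from 9 self-renewing C57BL/6 mouse macrophage lines, 3 from yolk sac (YS), 3 from fetal liver (FL) and 3 from adult bone marrow (BM), the yolk sac being taken at E9.5 and the fetal liver at E14.5. All lines were genetically unmodified and expanded with the macrophage growth factor M-CSF with no treatment that differed between the groups. Each line was the bulk culture of a separate dish or well, and the starting cells were pooled from more than 1 mouse, so lines of the same origin were not stated to come from separate animals and the p-values measure the spread between cultures.

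Animal cells make cholesterol from acetyl-CoA, first through the mevalonate arm and then, from squalene onward, through the sterol arm. SREBP2, the product of Srebf2, is a transcription factor held in the membrane of the endoplasmic reticulum with SCAP. When membrane sterol is plentiful, INSIG proteins keep this complex in place, and when sterol is scarce the complex leaves, SREBP2 is cut, and its released part switches on the synthesis genes and Insig1 itself. Macrophages also take up cholesterol with lipoproteins and engulfed cells, which is why this circuit is much studied in them.

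Expression was deposited as TPM, the share of each transcript in a library of fixed total, which is scaled by transcript length, so levels of different genes can be set side by side, but it does not keep the number of reads and the sequencing depth is unknown. The labelled cell type was checked first. All 7 macrophage markers reached 1 TPM in at least 1 line of each group, with a summed level of 3209 to 5939 TPM in YS, 6119 to 7156 TPM in FL and 5314 to 5900 TPM in BM lines. Among the YS lines, line 1 was the lowest for Csf1r, the M-CSF receptor (1086, 1882 and 1889 TPM in lines 1 to 3), for Cd68 (1018, 2256 and 2042 TPM) and for Fcgr1 (122.2, 329.9 and 286.4 TPM). Fcgr1 was much lower in BM lines 1 to 3 (5.47, 42.1 and 1.68 TPM) than in FL lines 1 to 3 (165.6, 110.1 and 171.9 TPM). YS line 3 was the lowest for Itgam (250.1, 351.4 and 195.8 TPM), Adgre1 (162.6, 511.8 and 132.2 TPM) and Spi1 (390.9, 427.3 and 364.1 TPM), and Ptprc read 178.9 to 188.7 TPM in the YS lines. BM line 2 held red-cell transcripts: the 6 erythroid markers summed to 330.1 TPM there, from 215 TPM of Hba-a1, 102 TPM of Hba-a2 and 12.6 TPM of Hbb-bt, while Hbb-bs was at 0. Summed stromal markers stayed at or below 1.27 TPM and lymphocyte markers at or below 0.62 TPM in every line. Hepatoblast markers summed to 1.03 to 6.75 TPM in YS, 9.00 to 20.6 TPM in FL and 3.10 to 12.5 TPM in BM lines, nearly all of it Afp, with Alb at or below 0.21 TPM. Granulocyte and mast cell markers summed to 0.39 to 3.46 TPM in YS, 10.8 to 25.1 TPM in FL and 3.59 to 5.00 TPM in BM lines, mostly S100a8 in FL and BM, with S100a9 and Elane at 0. The FL lines were thus the highest for the granulocyte and mast cell list, while for the hepatoblast list the FL and BM ranges overlapped. Whether these levels bear on the 7 genes was not tested. Emcn of the endothelial list was at 0 in all lines. Kdr read 0.29, 16.1 and 54.4 TPM in YS lines 1 to 3, 17.4 to 50.4 TPM in FL lines and at most 0.86 TPM in BM lines. Pecam1 differed from it, at 4.91, 8.17 and 0.29 TPM in YS lines 1 to 3 and at most 0.56 TPM in FL and BM lines. Cdh5 read at most 1.38 TPM and Tek at most 0.04 TPM in any line.

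Promoter sequence (RefSeq, GRCm38.p6, the 250 bases before the annotated transcription start) was found for 6 of the 7 genes, the exception being Sqle. Those printed are the 3 that hold a form of the sterol regulatory element to which SREBP2 binds and that of Insig1, the gene with the clearest difference between the lines. Each reads 5′ to 3′ on the gene's own strand, and capitals mark the sterol element and, on either strand, the CCAAT box. This box is bound by NF-Y, a factor known to act beside SREBP at such promoters.
Hmgcs1, chr13:119690101-119690350, plus strand: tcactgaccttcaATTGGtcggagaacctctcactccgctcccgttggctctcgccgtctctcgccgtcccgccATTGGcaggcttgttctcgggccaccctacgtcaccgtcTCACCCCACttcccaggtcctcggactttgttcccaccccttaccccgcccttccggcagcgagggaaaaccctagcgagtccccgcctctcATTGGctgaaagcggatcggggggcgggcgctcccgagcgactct
Srebf2, chr15:82147019-82147268, plus strand: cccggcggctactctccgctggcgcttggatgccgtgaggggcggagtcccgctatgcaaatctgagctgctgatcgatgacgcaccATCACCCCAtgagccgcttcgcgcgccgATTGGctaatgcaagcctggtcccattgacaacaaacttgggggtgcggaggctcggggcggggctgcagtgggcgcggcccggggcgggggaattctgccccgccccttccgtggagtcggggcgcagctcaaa
Cyp51, chr5:4104698-4104947, minus strand: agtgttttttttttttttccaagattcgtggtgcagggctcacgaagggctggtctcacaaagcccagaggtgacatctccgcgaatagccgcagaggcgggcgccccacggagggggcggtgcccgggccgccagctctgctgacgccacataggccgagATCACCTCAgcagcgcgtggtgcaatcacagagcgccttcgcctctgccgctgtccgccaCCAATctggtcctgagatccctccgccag
Insig1, chr5:28071162-28071411, plus strand: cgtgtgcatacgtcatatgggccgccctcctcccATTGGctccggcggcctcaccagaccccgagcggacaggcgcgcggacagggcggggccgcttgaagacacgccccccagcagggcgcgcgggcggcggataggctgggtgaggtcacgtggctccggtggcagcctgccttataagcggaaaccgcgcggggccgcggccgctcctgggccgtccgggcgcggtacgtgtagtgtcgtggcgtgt

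Both strands of the 6 windows were searched for TCACNCCAC, for the looser form ATCACNNCA, for the CCAAT box of NF-Y and for the GC box, which reads GGGCGG. The first 2 patterns can overlap, because a run that begins with A and continues as the stricter form meets both. Hmgcs1 holds TCACCCCAC, beginning 137 bases before the start, Srebf2 holds ATCACCCCA at 163 bases and Cyp51 holds ATCACCTCA at 89 bases. Thus 1 of 6 windows held the stricter form, against 1.05% of 32817 mouse promoter windows of the same length, and 2 of 6 held the looser form, against 2.30%. The CCAAT box was in 6 of 6 windows and in 33.8% of all, and the GC box in 6 of 6 and in 32.7% of all. Neither sterol form was in the windows of Insig1, Idi1 and Lss. A match describes the letters in the window only.

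Srebf2, the gene of the transcription factor itself, read 149.5, 87.4 and 49.2 TPM in YS lines 1 to 3, 88.1, 91.9 and 79.0 TPM in FL lines 1 to 3, and 121.7, 93.5 and 126.3 TPM in BM lines 1 to 3. All FL values lay under all BM values, while the YS lines spanned both groups. It was the most abundant of the 7 transcripts, with a mean over the 9 lines of 98.5 TPM.

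Insig1 encodes an INSIG protein, of the kind that keeps the SREBP2 complex in place when sterol is plentiful. It read 101.5, 62.8 and 43.9 TPM in the YS lines, 49.5, 59.9 and 60.5 TPM in the FL lines and 131.8, 103.0 and 140.0 TPM in the BM lines. Every BM line lay above every YS and FL line. The group means were 69.4 ± 29.4 TPM in YS, 56.6 ± 6.17 TPM in FL and 124.9 ± 19.4 TPM in BM (SD, n = 3 each), and YS and FL, neighbours in this order, overlapped.

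Hmgcs1 encodes the synthase that makes HMG-CoA, an early step of the mevalonate arm. It read 133.3, 38.3 and 20.2 TPM in the YS lines, 44.5, 65.9 and 46.1 TPM in the FL lines and 79.1, 51.4 and 75.8 TPM in the BM lines. The highest and the lowest of the 9 values were both from YS lines, 6.59-fold apart.

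Idi1 encodes the isomerase that interconverts the isoprenoid building blocks. Its values were 101.1, 35.0 and 17.0 TPM in the YS lines, 59.4, 63.3 and 51.7 TPM in the FL lines and 87.3, 55.3 and 69.1 TPM in the BM lines. Here too YS line 1 was above every other line and YS line 3 below every other line.

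Sqle encodes squalene epoxidase, a rate-limiting enzyme of the sterol arm. It read 131.9, 58.0 and 23.0 TPM in the YS lines, 63.4, 79.2 and 61.9 TPM in the FL lines and 104.5, 72.3 and 102.2 TPM in the BM lines. The FL range overlapped that of BM through FL line 2 and BM line 2.

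Lss encodes lanosterol synthase, which closes the ring system of the first sterol. It was the least abundant of the 7 genes, at 23.1, 11.3 and 9.55 TPM in the YS lines, 16.1, 18.2 and 15.1 TPM in the FL lines and 15.8, 13.0 and 16.1 TPM in the BM lines. FL and BM lines overlapped, at means of 16.5 ± 1.59 and 15.0 ± 1.69 TPM (SD, n = 3 each).

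Cyp51 encodes the demethylase that acts on lanosterol. It read 66.7, 23.7 and 13.4 TPM in the YS lines, 29.6, 37.6 and 31.4 TPM in the FL lines and 69.0, 49.6 and 65.0 TPM in the BM lines. All 3 FL lines were under all 3 BM lines, and YS line 1 alone among the YS lines fell inside the BM range.

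**Figure D1:**
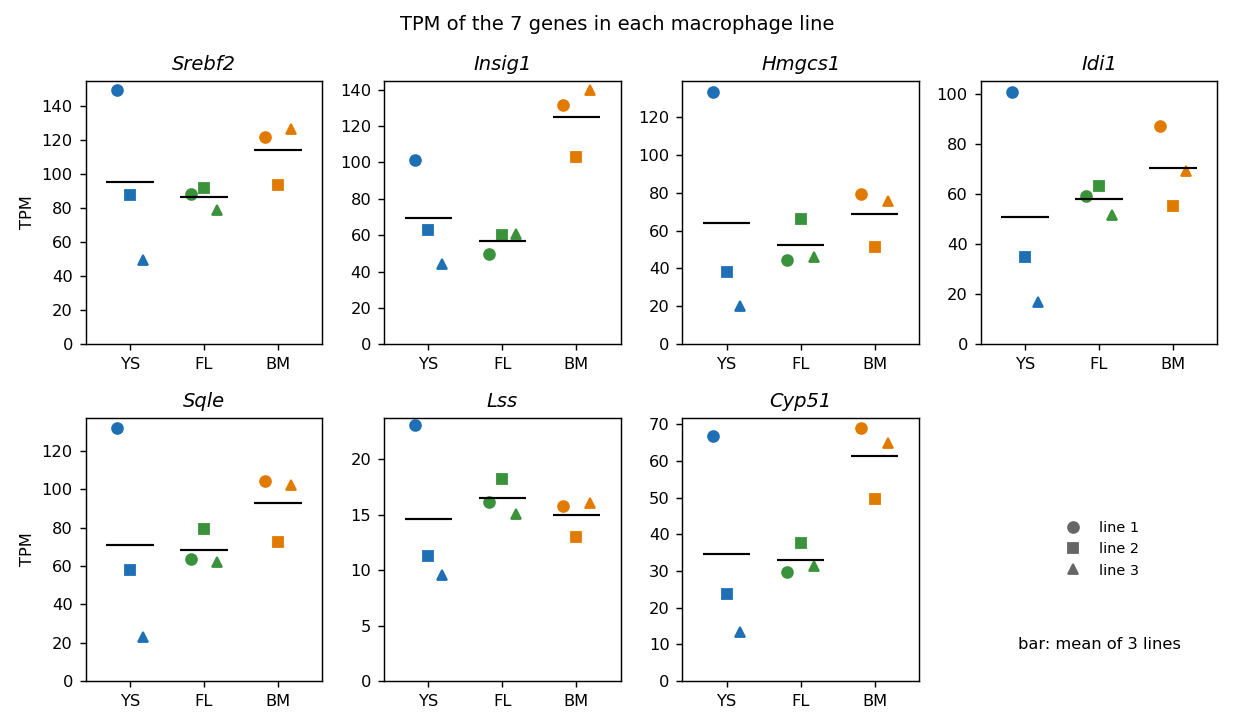
TPM of each of the 7 genes (vertical axes, linear and starting at 0) in YS, FL and BM lines, with one marker per line, its shape giving the line number, and a bar at the mean of 3 lines. YS line 1 is the highest and YS line 3 the lowest YS line in every panel, and Insig1 is the gene in which all BM lines, from 103.0 to 140.0 TPM, lie above all others.

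The comparison of origins asked whether the embryo-derived and the adult-derived lines differ. It was made with limma on log2(TPM + 1) over all 9 lines, with Benjamini-Hochberg adjustment over 11753 genes, and the study's thresholds decided the calls: an adjusted p (FDR) below 0.1 together with a difference exceeding 2-fold. Fold changes on this scale understate the change of low genes.

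Between FL and BM lines, Insig1 was the one gene of the 7 that was called. It was 1.12 lower in FL on the log2 scale, which is 2.17-fold (log2 fold change -1.12, SE 0.27, limma adjusted p = 0.022). Thus 1 of 7 genes was called in this comparison, in which 10.3% of all tested genes were called in either direction and 4.3% were called lower in FL. The other 6 were not called in this fit, in which the 3 groups share one estimate of spread, with log2 fold changes from -0.87 for Cyp51 (adjusted p = 0.233) to 0.13 for Lss (adjusted p = 0.783). Their 95% confidence intervals still admit changes of more than 2-fold for 5 of them, for example -1.68 to 0.90 on the log2 scale for Hmgcs1, and the interval of Lss was -0.51 to 0.77. With only the FL and BM lines fitted, Cyp51 (limma adjusted p = 0.009), Srebf2 (0.072) and Insig1 (0.003) were below an FDR of 0.1 with FL lower, 3 of 7 genes, against 15.4% of all tested genes, and Cyp51 was also below it without YS line 1 (0.024). The fold changes are the same in these fits, and Cyp51 and Srebf2 remained under 2-fold. Values of Insig1, Srebf2 and Cyp51 did not overlap between FL and BM lines, 3 of 7 genes with FL below, against 18.5% of all tested genes. The median log2 fold change of the 7 genes was -0.39 and that of all tested genes 0.09.

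Between YS and BM lines none of the 7 genes was called by limma, where 12.8% of all genes were. Insig1 and Cyp51, 2 of 7, had an unadjusted p under 0.05. The share of all tested genes with such a p was not counted. However, 4455 of 11753 were below an FDR of 0.1, a stricter limit in this comparison. Insig1 passed the FDR threshold with YS lower, but by less than 2-fold (log2 fold change -0.91, SE 0.27, limma adjusted p = 0.038), and it was the single one of the 7 below an FDR of 0.1, against 14.4% of all genes that passed with YS lower. It no longer passed without BM line 1 (log2 fold change -0.86, adjusted p = 0.115 by limma) or without BM line 3 (-0.82, adjusted p = 0.124). It was also the one gene whose YS and BM values did not overlap, with YS below, a pattern found in 18.7% of all tested genes. For Cyp51 the log2 fold change was -1.09 with an adjusted p of 0.114 by limma, and for the other 5 it ran from -0.80 for Idi1 to -0.12 for Lss, with limma adjusted p-values from 0.276 to 0.772. The median of the 7 was -0.69, beside 0.11 for all tested genes. Both comparisons use the same BM lines, so their directions are not independent of each other.

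Between YS and FL lines none of the 7 was called by limma, where 3.79% of all genes were, and none was free of overlap. None (0 of 7) had an unadjusted p under 0.05, while 1500 of 11753 tested genes were below the stricter FDR of 0.1. The log2 fold changes ran from -0.54 for Idi1 to 0.21 for Insig1. The interval was -0.76 to 0.77 on the log2 scale for Srebf2 and -1.41 to 1.17 for Hmgcs1, so differences of 2-fold in the latter were not detectable with these lines.

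The YS values were spread widely between line 1 and line 3. The 7 genes summed to 707.1 TPM in YS line 1, 316.4 TPM in YS line 2 and 176.3 TPM in YS line 3, whereas the sums were 345.6 to 415.9 TPM in FL and 438.1 to 609.1 TPM in BM lines. YS line 1 was the highest and YS line 3 the lowest YS line in 7 of 7 genes. The SD of log2(TPM + 1) among YS lines ran from 0.60 for Insig1 to 1.36 for Hmgcs1, while the median over all tested genes was 0.28, and 83.5% to 96.9% of tested genes had a smaller SD. Among FL lines the 7 SDs ran from 0.11 to 0.31, beside a median of 0.18 over all genes, and among BM lines from 0.16 to 0.34, beside 0.12.

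Leaving out YS line 1, the highest YS line in 7 of 7 genes, lowers every YS mean by construction, so the calls below are a description. The genes also moved together from line to line, so calls among them are not independent. Without YS line 1, with 2 YS lines against 3 BM lines, 5 of the 7 genes were called lower in YS, where 4.78% of all tested genes were called in that direction. These were Cyp51 (log2 fold change -1.71, SE 0.25, limma adjusted p = 0.005), Idi1 (-1.47, SE 0.30, adjusted p = 0.013), Sqle (-1.30, SE 0.36, adjusted p = 0.033), Hmgcs1 (-1.25, SE 0.31, adjusted p = 0.024) and Insig1 (-1.22, SE 0.19, adjusted p = 0.006). The 2 not called, Srebf2 (-0.77, adjusted p = 0.048) and Lss (-0.48, adjusted p = 0.047), passed the FDR threshold but differed by less than 2-fold. Against the FL lines, Idi1 alone was called lower without YS line 1 (-1.21, limma adjusted p = 0.067), where 1.63% of all genes were. YS line 1 was the lowest YS line for Csf1r, Cd68 and Fcgr1, and whether this bears on the 7 genes was not tested.

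Leaving out YS line 3, the lowest YS line in 7 of 7 genes, raises every YS mean by construction. Without it, 0 of 7 genes were called by limma against BM, where 5.6% of all tested genes were called lower in YS. The log2 fold changes of YS against BM were then -0.63 for Insig1 (adjusted p = 0.072 by limma), -0.59 for Cyp51 (0.267), -0.22 for Idi1 (0.704), -0.07 for Sqle (0.893), 0.02 for Srebf2 (0.957), 0.08 for Hmgcs1 (0.906) and 0.11 for Lss (0.771). Of these, Insig1 alone had an unadjusted p under 0.05, and 3 of 7 values had changed sign. The share of all tested genes with such a p was not counted for this fit. Against FL, 6 of 7 log2 fold changes were above 0 without YS line 3, from 0.04 for Idi1 to 0.49 for Insig1, with none called. YS line 3 was the lowest YS line for Itgam, Adgre1 and Spi1, and whether this bears on the 7 genes was not tested.

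**Figure D2:**
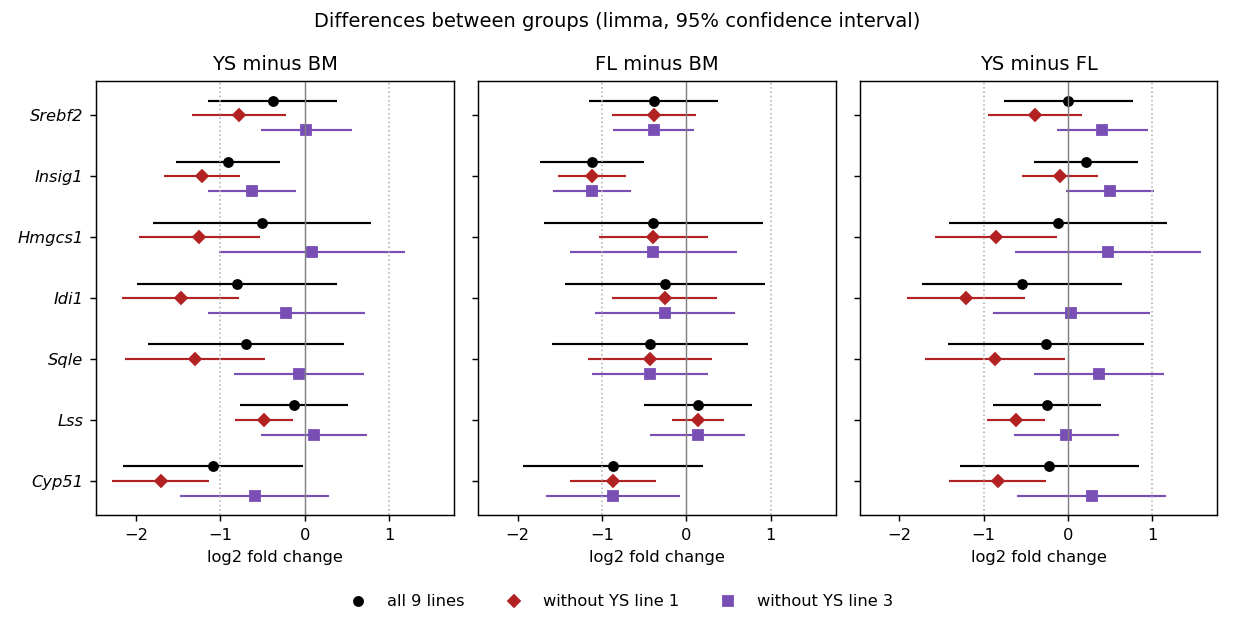
Log2 fold change of each gene (horizontal axis, limma on log2(TPM + 1)) for YS minus BM, FL minus BM and YS minus FL, with 95% confidence intervals unadjusted for multiple tests, from all 9 lines (black circles), without YS line 1 (red diamonds) and without YS line 3 (purple squares). Dotted lines mark a 2-fold change. Without YS line 1 the YS minus BM values shift from between -1.09 and -0.12 to between -1.71 and -0.48, and without YS line 3 to between -0.63 and 0.11, while the FL minus BM values keep their place and their intervals narrow.

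The BM group had a lesser split of the same kind. BM line 2 was the lowest BM line in 7 of 7 genes, and was also the line with erythroid transcripts; whether these bear on the 7 genes was not tested. Without BM line 2, Insig1 was called in both comparisons with BM, and in YS against BM its adjusted p was 0.051 by limma at a log2 fold change of -1.04. Among the FL lines, line 2 was the highest in 6 of 7 genes and line 3 in Insig1.

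The 7 genes moved together from line to line. Over the 9 lines, Pearson's r between the log2 deviations of 2 genes from their group means ran from 0.919 for Insig1 and Lss to 0.997 for Hmgcs1 and Cyp51, with a median of 0.969 over 21 pairs. With the YS lines left out, leaving 6 lines, it ran from 0.505 for Insig1 and Idi1 to 0.985, with a median of 0.843. These values describe the lines and carry no test, since the points share libraries and the deviations within a group sum to 0.

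The amounts by which the genes moved were unequal. Between YS lines 1 and 3 the 3 genes of widest range were Hmgcs1 (6.59-fold), Idi1 (5.95-fold) and Sqle (5.74-fold), followed by Cyp51 (4.97-fold), while Srebf2, Lss and Insig1 spanned 3.04-fold, 2.42-fold and 2.31-fold. The regulatory pair therefore varied less among YS lines than 4 of the 5 enzymes.

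A ratio within a line removes only a change that both genes share in equal measure. The genes moved by unequal amounts, so a ratio can still follow the level of the pathway in a line. The pairs given here were chosen after the values had been seen, so they are not tested. The ratio of Insig1 to Srebf2 TPM was 1.08, 1.10 and 1.11 in BM lines, 0.68, 0.72 and 0.89 in YS lines and 0.56, 0.65 and 0.77 in FL lines. The BM lines, BM line 2 included, all lay above the other 6 lines. The ratio of Cyp51 to Lss, which encode successive sterol-arm enzymes, was 4.37, 3.82 and 4.05 in BM lines, 2.89, 2.10 and 1.41 in YS lines and 1.83, 2.06 and 2.08 in FL lines. All BM lines lay above the other 6 here too, also above YS line 1, whose TPM of Cyp51 alone was within the BM range. In 3 further ratios the YS lines overlapped the BM lines while the FL lines lay below them. Insig1 to Hmgcs1 was 0.76, 1.64 and 2.17 in YS, 0.91 to 1.31 in FL and 1.67 to 2.00 in BM lines. Insig1 to Insig2 was 2.94, 1.64 and 1.44 in YS, 1.40 to 1.58 in FL and 2.59 to 3.86 in BM lines. Sqle to Lss was 5.71, 5.15 and 2.41 in YS, 3.93 to 4.35 in FL and 5.55 to 6.62 in BM lines.

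**Figure D3:**
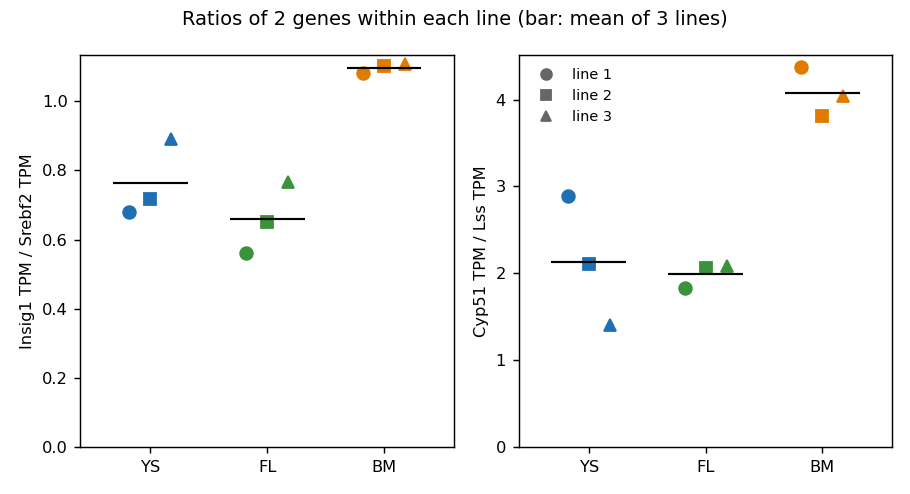
Ratio of Insig1 to Srebf2 TPM (left) and of Cyp51 to Lss TPM (right) within each line, on axes starting at 0, with marker shape for the line number and a bar at the mean of 3 lines. In both panels the 3 BM lines, at 1.08 to 1.11 and at 3.82 to 4.37, lie above all YS and FL lines.

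The rest of the pathway was read from lists of 64 genes, the 7 included, of which 60 passed the filter on low values. All 21 synthesis enzymes passed it. In YS against BM, 1 of the 21 was called higher, where 7.57% of all tested genes were, and none lower, with a median log2 fold change of -0.29, and in FL against BM likewise 1 higher, where 6.01% of all genes were, and none lower, with a median of -0.26. At an unadjusted p under 0.05, limma gave 3 higher and 2 lower in YS and 2 higher and 0 lower in FL. The share of all tested genes with such a p was not counted. At the stricter FDR of 0.1, 2763 of 11753 genes were higher and 1692 lower in YS, and 1996 higher and 1251 lower in FL. The called enzyme was Dhcr7, the reductase of the last steps, at 17.8, 16.9 and 17.9 TPM in BM lines, 39.7, 44.7 and 39.9 TPM in FL lines and 85.6, 30.3 and 25.7 TPM in YS lines. It was 1.19 higher in FL (limma adjusted p = 0.056) and 1.17 higher in YS (adjusted p = 0.048) than in BM on the log2 scale, the opposite direction to the median of the 7 genes, and both calls were lost with single lines left out. In YS against BM it was 0.64 (adjusted p = 0.009) without YS line 1, and its adjusted p was 0.118, 0.113 and 0.118 without BM line 1, 2 or 3, at log2 fold changes of 1.14 to 1.18. In FL against BM its adjusted p was 0.116 to 0.141 without any 1 of the FL or BM lines, while its log2 fold change stayed at 1.14 to 1.22. Ebp, the sterol isomerase, was also higher in FL than in BM, by 0.94 (adjusted p = 0.004), which is under 2-fold.

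Without YS line 1, 9 of the 21 enzymes were called lower in YS than in BM, where 4.78% of all tested genes were, and none higher. Besides Hmgcs1, Idi1, Sqle and Cyp51 these included Fdft1, Msmo1, Sc5d and Tm7sf2, all of the sterol arm. The same line was the highest YS line in 20 of the 21 enzymes, so leaving it out lowers their YS means and these calls are a description. YS line 3 was the lowest in 19. Ebp ran the other way, at 38.1, 50.1 and 56.7 TPM in YS lines 1 to 3.

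**Figure D4:**
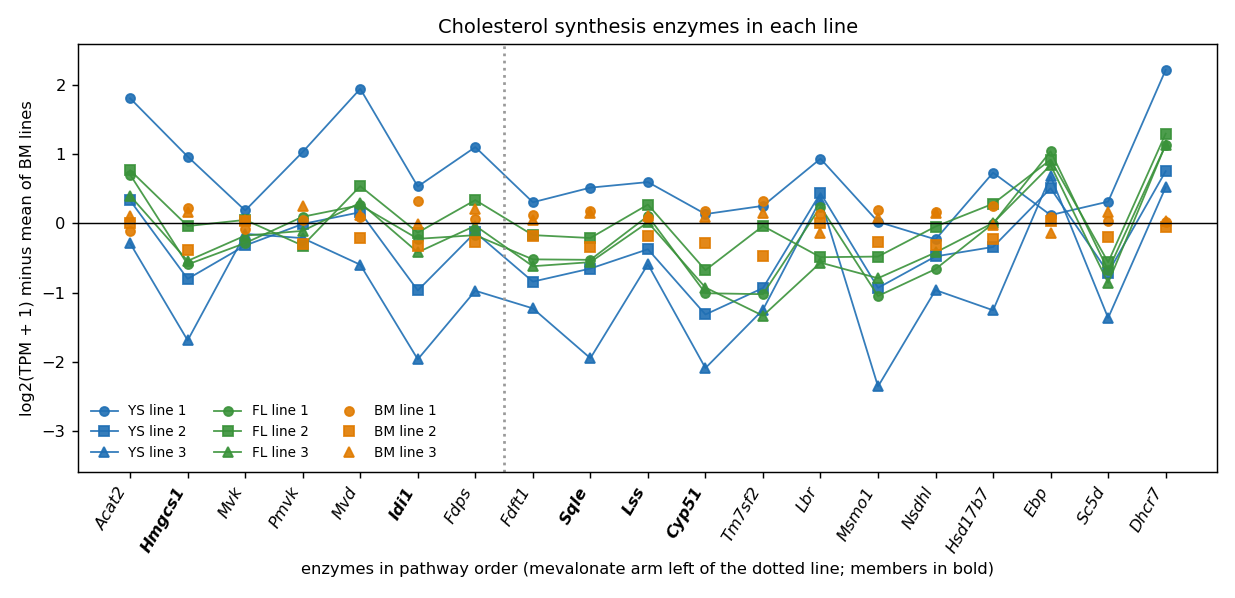
Log2(TPM + 1) of 19 of the 21 synthesis enzymes in each line, minus the mean of the 3 BM lines (vertical axis), with enzymes in pathway order from left to right and the 5 enzymes among the 7 genes in bold. Colours give the group and shapes the line number, and connecting strokes only guide the eye. YS line 1 is the highest YS line in 18 of these 19 enzymes and YS line 3 the lowest in 17. All FL lines lie above all BM lines for Acat2, Mvd, Ebp and Dhcr7, a pattern whose share of all tested genes was not counted. In FL against BM, 6940 of 11753 tested genes had a log2 fold change above 0. All FL lines lie below all BM lines for Cyp51, Msmo1 and Sc5d, a pattern found in 18.5% of all tested genes.

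In the mevalonate arm the gene with the largest difference between FL and BM was Acat2, with a log2 fold change of 0.63 (limma adjusted p = 0.362). It read 31.3, 32.8 and 25.1 TPM in FL and 17.4, 18.9 and 20.2 TPM in BM lines, without overlap. The YS lines read 68.6, 23.9 and 15.2 TPM. Its log2 SD was 1.08 among YS, 0.20 among FL and 0.10 among BM lines, and the 3 groups share one estimate of spread in this fit.

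Of the 12 genes that control SREBP, 2 were called lower in FL than in BM, Insig1 and Erlin1, where 4.3% of all tested genes were. None was called in the other comparisons by limma. There, 3 of 12 for YS against BM and 1 of 12 for YS against FL had an unadjusted p under 0.05. Of all 11753 tested genes, 4455 and 1500 were below the stricter FDR of 0.1 in these comparisons. Erlin1, whose product takes part in the degradation of sterol-sensing proteins, read 33.4, 25.1 and 29.1 TPM in FL and 69.9, 58.9 and 62.8 TPM in BM lines (log2 fold change -1.11, SE 0.13, limma adjusted p = 0.001). In YS lines it read 37.39, 35.05 and 32.03 TPM, also below all BM lines but by less than 2-fold (log2 fold change -0.86, limma adjusted p = 0.004). Between YS and FL its log2 fold change was 0.25 (limma adjusted p = 0.264). Insig2, the paralog of Insig1, read 30.6 to 38.2 TPM in YS, 35.3 to 41.6 TPM in FL and 36.3 to 41.9 TPM in BM lines, with log2 fold changes of -0.19 or closer to 0. Scap, the partner of SREBP2, read 36.2 to 46.6 TPM over all 9 lines. Srebf1, which encodes the related factor of fatty acid synthesis, read 113.7, 48.6 and 49.9 TPM in YS lines, 36.7 to 40.9 TPM in FL and 45.1 to 50.2 TPM in BM lines, and its log2 fold change between YS and FL was 0.76 (limma adjusted p = 0.147). The ratio of Srebf2 to Srebf1 TPM was 1.31, 1.80 and 0.99 in YS lines, and 1.93 to 2.52 in the 6 FL and BM lines.

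Of 7 tested genes for cholesterol uptake and other SREBP2 targets, 2 were called lower in YS than in BM, where 5.22% of all tested genes were. Npc1, which exports cholesterol from lysosomes, read 96.3, 106.5 and 80.2 TPM in YS, 171.4, 177.7 and 190.9 TPM in FL and 262.4, 218.4 and 248.7 TPM in BM lines. Its 3 groups did not overlap, with a log2 fold change of -1.36 between YS and BM (SE 0.13, limma adjusted p = 0.0006) and of -0.43 between FL and BM (adjusted p = 0.046), the latter under 2-fold. Acss2, an acetyl-CoA synthetase, read 1.26, 2.83 and 2.93 TPM in YS lines, 5.15 to 8.22 TPM in FL and 4.90 to 7.60 TPM in BM lines, and was called lower in YS against both (log2 fold changes of -1.09 and -1.25, limma adjusted p = 0.022 and 0.047). Acss2 was under 2-fold without YS line 1, at -0.83 and -0.99, with a pseudocount of 4, at -0.66 and -0.77, and without BM line 1 against BM (-0.93). Its adjusted p against FL was 0.134 by limma without FL line 2, at a log2 fold change of -1.12. With only the YS and FL lines fitted it was 0.160, at -1.25. Unlike the 7 genes, Npc1 and Acss2 were not highest in YS line 1.

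The genes whose profile over the 9 lines was most like the mean profile of the 7, each centred on its own mean, were Fdft1 (r = 0.981), Tfeb (0.973), Phkb (0.970), Msmo1 (0.965) and Polr3g (0.964). Fdft1 encodes squalene synthase and Msmo1 a sterol methyl oxidase, while Tfeb encodes a lysosomal transcription factor, Phkb a phosphorylase kinase subunit and Polr3g an RNA polymerase III subunit. Of the 25 genes most like the profile, 3 were on the pathway lists, Fdft1, Msmo1 and Sc5d. These correlations over 9 lines describe likeness only.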

How the data were processed

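Poly(A) RNA of 9 lines was sequenced with a stranded kit. Per the submitters' processing notes, Trim Galore 0.6.6, STAR 2.7.9a and RSEM 1.3.3 were used, and the authors deposited TPM per gene symbol. Genome build and annotation are not given in the sources used here. TPM does not keep read counts, so the count test named in the study's methods could not be used.

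Genes at 1 TPM or more in at least 3 of 9 lines (11753 of 24411) were tested on log2(TPM + 1) with limma 3.58.1 (R 4.3.3), with a mean-variance trend and 3 groups in one fit, after a test on simulated data. With 3 lines against 3, an exact permutation test cannot give a p below 0.1, so none is printed. Depth is unknown and the spread among lines is the only measure of precision.

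The 7 genes and the pathway and marker lists were chosen with earlier results of these data known. Genes beyond the 7 were named when called in a comparison, when largest in a list with no call, as partners or paralogs (such as Srebf1, Insig2 and Scap), or as the 5 most like in profile. Ebp, Mvd, Abca1, ratios and the enzymes called without YS line 1 were named after their values were seen. Lines sharing a number were checked for pairing: correlations of their deviations ran from -0.118 to 0.088, so numbers do not pair lines. Some genes that this rule names are not reported here. Promoter bases after the start were left out. Alternatives changed the pseudocount, filter, scaling, variance model, thresholds and lines.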

Additional observations from a re-analysis of the deposited data

How the results depend on the processing

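Of 120 counts of calls recomputed over 3 comparisons, 21 moved by more than 1.5 times, and of 420 log2 fold changes of the 7 genes 16 changed sign and 12 gained a call, none losing one. Insig1 in FL against BM was called under all 20 settings, with log2 fold changes from -1.25 to -1.03. In YS against BM the count of the 7 called was 2 under quantile normalization and under median-of-ratios scaling (Insig1 and Cyp51), 1 with no fold threshold and 0 to 5 with 1 line left out. These scalings brought the median of all genes from 0.11 to -0.01 and 0.00. In YS against FL it was 0 to 1 with 1 line left out. Pathway genes called in YS against BM, 7 in the main analysis, were 4 with a pseudocount of 4, 17 with no fold threshold and 5 to 16 with 1 line left out. In FL against BM they were 4, and 12 with no fold threshold. In YS against FL they were 2, then 0 with a pseudocount of 4 or only the 2 groups fitted, 1 with no filter, with a filter at 5 TPM or at an FDR of 0.05, 7 with no fold threshold and 0 to 3 with 1 line left out.

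With 1 line left out, log2 fold changes of YS against BM ran from -1.25 to 0.084 for Hmgcs1, -0.77 to 0.019 for Srebf2 and -0.48 to 0.11 for Lss. In YS against FL they ran from -0.86 to 0.47 for Hmgcs1, -0.87 to 0.37 for Sqle, -0.10 to 0.49 for Insig1, -0.39 to 0.40 for Srebf2, -1.21 to 0.040 for Idi1 and -0.83 to 0.28 for Cyp51. Srebf2 in YS against FL was also -0.010 under quantile normalization and -0.014 under median-of-ratios scaling. With the line number as a replicate block, the counts of the 7 genes were 0, 1 and 0 and those of pathway genes 8, 4 and 2 for YS against BM, FL against BM and YS against FL, and no call among the 7 changed. The cause of these shifts was not tested. TPM alone limits the precision for low genes.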

Other observations

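YS line 1 was the highest YS line in 7 of 7 tested SREBP1 fatty acid targets, as it was in the 7 genes of the report. Of the same list, 2 were called higher and 1 lower in YS than in BM, where 7.57% and 5.22% of all tested genes were, with a median log2 fold change of 0.62, and 1 was called lower in FL than in BM, where 4.3% were. Fads1, a fatty acid desaturase gene, read 74.9, 52.2 and 57.5 TPM in YS, 57.6, 39.0 and 50.9 TPM in FL and 150.8, 122.3 and 144.7 TPM in BM lines, so that BM lay above both (log2 fold changes of -1.18 and -1.50, limma adjusted p = 0.004 and 0.001). Fasn, the fatty acid synthase gene, had the opposite order, at 124.3, 65.3 and 56.0 TPM in YS, 60.7 to 78.5 TPM in FL and 36.5 to 38.4 TPM in BM lines, and was called higher in YS than in BM (1.01, limma adjusted p = 0.023). It was under 2-fold without YS line 1 (0.67), without BM line 1 (0.99), with a pseudocount of 4 (0.96) and under both other scalings (0.89 and 0.90). Fads2 read 56.7, 2.26 and 16.1 TPM in YS lines, 2.33 TPM in FL line 1 and at most 0.38 TPM in the other FL and BM lines, and was called higher in YS than in BM (3.68, limma adjusted p = 0.020) and than in FL (3.21, adjusted p = 0.077). The call against FL was lost without any 1 of the lines other than YS line 2 and FL line 1, with adjusted p-values of 0.120 to 0.207, at log2 fold changes of 3.21 without any 1 BM line and of 2.23 to 3.11 without the others. It was also lost at an FDR of 0.05, with no filter (limma adjusted p = 0.118) and with only the 2 groups fitted (0.2095), both at 3.21. With a pseudocount of 4 it was lost too (0.1015, at 2.05). Fads2 passed the filter on low values only through the YS lines and FL line 1, where it is high, so the filter favoured a call in this direction and the call is a description.

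Of 7 tested genes of LXR and sterol disposal, Apoe was called higher in YS than in BM, where 7.57% of all tested genes were, at 17.2, 13.9 and 11.1 TPM against 5.45, 6.21 and 6.50 TPM (log2 fold change 1.07, limma adjusted p = 0.009). Apoe was under 2-fold without YS line 1 (0.93), with a pseudocount of 4 (0.83) and under quantile (0.96) or median-of-ratios scaling (0.97). Abca1, the cholesterol exporter gene, was higher in YS (0.80, adjusted p = 0.003) and in FL (0.95, adjusted p = 0.001) than in BM, under 2-fold, at 35.5 to 44.6 TPM in BM and 62.8 to 77.5 TPM in the other 6 lines. Ch25h, which encodes cholesterol 25-hydroxylase, varied most from line to line: 3.71, 90.6 and 193.1 TPM in YS, 85.8, 0.10 and 0.35 TPM in FL and 0, 16.1 and 0 TPM in BM lines, with no call. None of the 6 genes of the non-sterol isoprenoid branch was called by limma. In YS against BM, FL against BM and YS against FL, 3, 2 and 2 of them had an unadjusted p under 0.05. Of all 11753 tested genes, 4455, 3247 and 1500 were below the stricter FDR of 0.1 in these comparisons. The largest differences in this branch were 0.46 for Pdss2 between YS and BM, 0.58 for Dhdds between FL and BM and 0.56 for Pdss1 between YS and FL.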
